A study of Mus musculus with 8 samples.

Results

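Among the dendritic cells (DC) that had entered beta cell grafts, 240 cells formed the cluster with the highest level of Ccr7, the chemokine receptor that guides DC to lymph nodes. The cells annotated as DC were grouped by the authors' cluster number and clusters with at least 50 DC were kept. The members were then chosen by their Ccr7 level, as the cluster in which Ccr7 made up the largest part of all unique molecular identifiers (UMIs, 1 per counted transcript). The 240 cells, cluster 21 of 29, were all annotated as DC and made up part of 1104 DC and 22441 cells in all, and they are called Ccr7-high DC below. The other 864 DC fell into cluster 17 with 386 cells, cluster 19 with 341 cells and cluster 25 with 137 cells. The study compared immune cells in grafts of NIT-1, an insulin-producing line of NOD mouse origin, grown out of a beta cell tumor, either wild type (WT) or carrying a mutation of Rnls, the gene of renalase. Both kinds of graft were placed under the skin of immunodeficient NOD.scid mice, on opposite flanks, and the mice then received splenocytes of diabetic NOD mice. CD45+ living cells were sorted from the grafts 10 or 17 days after transfer, with 4 grafts per genotype and day, each marked with its own hashtag antibody and pooled into 1 library per genotype and day. The mutation was carried by the grafted cells and not by the immune cells measured here, and all grafts, WT included, were under attack by transferred splenocytes, so no group was free of autoimmune cells.

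DC take up antigen in tissue and, on maturation, stop sampling, raise surface MHC and costimulatory ligands, and move along Ccl19 and Ccl21 gradients through the receptor Ccr7. Fscn1 encodes fascin, an actin-bundling protein of the long dendrites of mature DC. The same mature state carries ligands and enzymes that restrain T cells, such as PD-L1 (Cd274), Cd200 and the amino acid oxidase Il4i1, and chemokines such as Ccl17 and Ccl22 that draw Ccr4+ T cells, and it can be reached by both conventional DC lineages, cDC1 and cDC2.

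At day 10, 109 Ccr7-high DC came from Rnls mutant grafts and 101 from WT grafts. At day 17 there were 19 and 11, spread over 7 grafts with 2 to 9 cells each, since WT replicate 3 held none. A member had a median of 4879 UMIs (range 1888 to 17051) and 1629.5 genes. The median per group was 4707 UMIs for mutant and 4718 for WT at day 10, and 5679 for mutant and 10572 for WT at day 17, so the few WT cells of day 17 were more deeply counted than the rest. Because each library held 1 genotype at 1 day, library and group cannot be told apart. The labels do not tie grafts to mice, and p-values measure the spread between grafts. Confidence intervals cover counting error only.

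The label was checked against markers of DC and of other cells. Members carried the DC cytokine receptor Flt3 at 228 CPM (UMIs of the gene per 1000000 UMIs of the pooled cells or of the graft), the DC transcription factor Zbtb46 at 180 CPM and the MHC class II chain H2-Aa at 7350 CPM, against 78.8, 114 and 8110 CPM in the other DC. Of 9 markers common to DC, 2 were at least 2 times higher than in the other DC and 2 were at 0.5 times or less. Over all 7781 genes at 10 CPM or more, 12.8% and 26.4% were. The 9 markers had a median log2 ratio of -0.51 and summed to 30152 CPM, against 40450 CPM in the other DC. The macrophage markers Adgre1 and Cd163 were at 0 in every group, and all 11 beta cell transcripts searched, Ins1 and Ins2 among them, were at 0. Of 13 macrophage markers, 9 to 10 were seen per group, at a summed level of 57.5 to 97.4 CPM over the mutant and 37.4 to 68.0 CPM over the WT grafts of day 10, and 134 to 428 and 104 to 159 CPM at day 17. The 10 monocyte markers were not absent and summed to 656 to 2198 CPM at day 10, against 2307 to 4775 CPM in the other DC. At day 17 they summed to 67.7 to 2690 CPM, against 1025 to 2332 CPM. The 11 T cell markers summed to 0 to 99.6 CPM at day 10, 0 to 20.9 CPM in mutant and 16.9 to 183 CPM in WT grafts at day 17, with Cd4 and Cd8b1 at 0 throughout. Pooled over grafts, the T cell markers were higher in members than in the other DC, at 65.1 against 38.0 CPM. The 8 NK cell markers summed to 18.7 to 115 CPM at day 10. At day 17 they summed to 0 to 41.8 CPM in mutant grafts and to 0 in WT replicates 1 and 2, while the 4 members of WT replicate 4 held 90 UMIs of them, or 2351 CPM. That graft is therefore left out in turn below. Only 2 members had 2 or more UMIs of T cell receptor and CD3 genes, and 1 member shared its barcode with a cell of another library.

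Ccr7 chose the cluster, and the clustering itself used all genes of these cells, so the levels that follow, up to the comparison of genotypes, describe the cluster and carry no test. Pooled over grafts, Ccr7 stood at 2332 CPM in the chosen cluster and at 270 CPM in cluster 17, the next in order. It was 143 CPM in the regulatory T cells of cluster 15, 97.7 CPM in the CD4 T cells of cluster 8, 39.1 CPM in DC cluster 25 and 37.2 CPM in DC cluster 19. The second marker, Fscn1, was at 1842 CPM against 17.3 CPM in the other DC. Without thinning, UMIs of both genes were found in 218 of the 240 members (90.8%) and none lacked both, whereas 6.22% of cluster 17, 2.19% of cluster 25 and 0.293% of cluster 19 held both. The members made up 218 of the 260 cells with both genes in the whole data set. After each cell was thinned to 1000 UMIs to remove differences in depth, Ccr7 was detected in 78.8% of members and 7.99% of other DC, and Fscn1 in 73.3% and 1.16%. In CD8 T cells, which should lack fascin, 4 of 3449 cells had a Fscn1 UMI before thinning and 0 after it, which allows a share of up to 0.087%.

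Ccr7 lies on chromosome 11 at chr11:99144196-99155077 (minus strand) and Fscn1 on chromosome 5 at chr5:142960343-142973185 (plus strand) in GRCm38. Fscn1 had the higher ratio over other DC of the 2 markers, and the 250 bases before its RefSeq transcription start are given below from RefSeq GRCm38.p6 at chr5:142960105-142960354 (plus strand). Capitals mark the 2 matches to the general form of an NF-kB site, GGG and CC with any 5 bases between them, searched on both strands.
Fscn1: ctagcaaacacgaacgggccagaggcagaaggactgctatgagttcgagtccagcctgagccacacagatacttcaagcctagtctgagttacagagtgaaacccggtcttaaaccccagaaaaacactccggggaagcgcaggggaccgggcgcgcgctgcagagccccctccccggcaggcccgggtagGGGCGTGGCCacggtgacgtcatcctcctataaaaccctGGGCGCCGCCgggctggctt
The match nearest to the start lies 10 bases before it. These letters are common: 48.7% of 27025 genes hold them in a window of this kind, and 7 of the 10 matched genes among the 15 leading ones described next do, against 69.3% of 1117 matched genes tested between days. A match is a description of the letters and not a binding site.

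The 15 genes with the highest ratio over the other DC, among genes at 100 CPM or more in the cluster, were led by Tnfrsf4 (113 against 0.864 CPM), the receptor OX40, and Nudt17 (337 against 3.02 CPM). They included Cacnb3, a calcium channel subunit, at 477 against 7.20 CPM, the chemokine Ccl5 at 6281 against 99.6 CPM, the tetraspanin Cd63 at 1038 against 21.2 CPM, and Il2ra, the interleukin-2 receptor alpha chain, at 108 against 3.02 CPM. Socs2, an inhibitor of cytokine signaling, stood at 625 against 19.3 CPM, and H2-M2, a nonclassical MHC class I gene, at 311 against 7.49 CPM. Zmynd15, Igfbp4, Gm13546, Fancd2, Adcy6 and Mreg completed the 15 with ratios of 36.8 to 57.0. Fancd2 was seen in only 28 of the 240 members, Tnfrsf4 in 78 and Il2ra in 81. Regulatory T cells held Tnfrsf4 in 89.3% and Il2ra in 55.8% of cells.

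Genes of mature DC were high as a group. Of 37 list members at 10 CPM or more in either population, 35 were at least 2 times higher in Ccr7-high DC and 0 were at 0.5 times or less, with a median log2 ratio of 3.51. Over all 7781 genes at that level, 12.8% were at least 2 times higher and 26.4% were at 0.5 times or less, with a median log2 ratio of -0.32. The counts of the other lists below stand against the same shares. The mature DC list was written for the state that Ccr7 marks and is not independent of the choice. Besides Ccr7 and Fscn1 it held Fabp5, a lipid carrier, with 2859 to 5533 CPM over the 8 grafts of day 10 against 93.8 to 235 CPM in the other DC, and Relb, a subunit of noncanonical NF-kB, with 542 to 883 against 82.6 to 174 CPM.

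**Figure D1:**
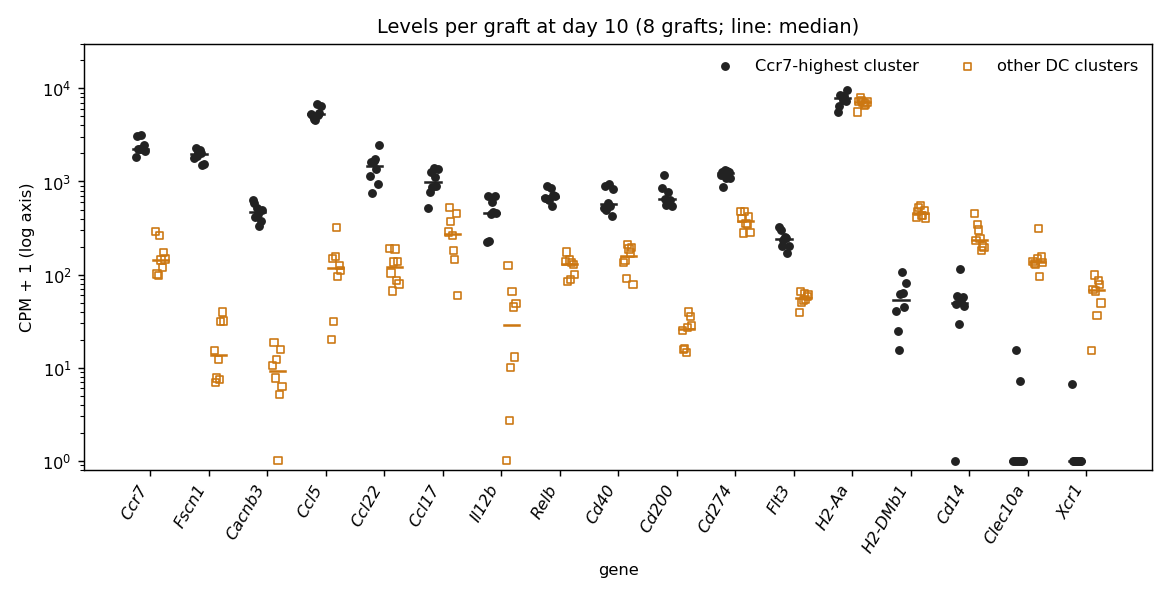
Levels per graft at day 10 of 17 genes in Ccr7-high DC (filled circles) and in the other DC of the same grafts (open squares), in CPM plus 1 on a log axis, with lines at the median of 8 grafts. The ranges of Ccr7, Fscn1, Cacnb3, Ccl5, Ccl22, Il12b, Relb, Cd40, Cd200, Cd274 and Flt3 lie above those of the other DC, H2-DMb1, Cd14, Clec10a and Xcr1 lie below, and H2-Aa overlaps.

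Chemokine genes were split. The Ccr4 ligand Ccl22 ranged from 747 to 2438 CPM with a median of 1481 CPM over the 8 grafts of day 10, against 65.7 to 191 CPM in the other DC. Its partner Ccl17 ranged from 521 to 1389 CPM with a median of 997 CPM, against 58.2 to 528 CPM, and was higher than in the other DC of the same graft in 8 of 8 grafts. Ccl5, which draws T cells and NK cells, ranged from 4523 to 6806 CPM against 19.1 to 317 CPM. Cxcl16, the ligand of Cxcr6, ranged from 704 to 1217 CPM against 150 to 330 CPM. The interferon-induced Cxcr3 ligands ran the other way or together, with Cxcl9 at 298 to 3061 CPM against 1407 to 4312 CPM and lower in 7 of 8 grafts, and Cxcl10 at 692 to 1235 CPM against 705 to 2051 CPM and lower in 6 of 8. Of 14 chemokines measured, 5 were at least 2 times higher and 4 were at 0.5 times or less. Over all genes 12.8% and 26.4% were, so the lower part was near that of all genes. The summed chemokine level was 11798 CPM in members, 7805 CPM in cluster 17, 2200 CPM in cluster 19 and 1593 CPM in cluster 25.

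Receptor and migration genes were split as well. Of 18 measured, 10 were at least 2 times higher, 5 were at 0.5 times or less and 3 were neither. Over all genes 12.8% were higher and 26.4% lower by these limits, so the lower part was again near that of all genes. Ccr2, which brings monocytes and DC precursors into tissue, was at 1.55 CPM against 182 CPM in the other DC, and Ccr1, a receptor for inflammatory chemokines, was at 1.55 CPM against 22.5 CPM. Gpr183, the oxysterol receptor that positions DC, ranged from 239 to 934 CPM over the grafts of day 10 against 43.8 to 203 CPM.

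Costimulatory ligands were higher than in the other DC clusters pooled, by smaller ratios than the mature DC genes. Cd40, the receptor for T cell help, ranged from 430 to 937 CPM at day 10 against 77.2 to 208 CPM in the other DC. Cd80 ranged from 230 to 366 CPM against 99.4 to 183 CPM and Cd86 from 501 to 808 CPM against 249 to 384 CPM, both ligands of Cd28. The ranges did not overlap for these 3 genes. Cd70, the ligand of Cd27, ranged from 61.1 to 263 CPM where the other DC held 0 to 6.67 CPM. Of 9 such ligands, 5 were at least 2 times higher and 0 were at 0.5 times or less, with a median log2 ratio of 1.31. Their summed level was 2660 CPM in members, 1750 CPM in cluster 17, 1223 CPM in cluster 19 and 329 CPM in cluster 25.

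Inhibitory genes were higher in the same cells. PD-L1 (Cd274) ranged from 877 to 1339 CPM with a median of 1219 CPM at day 10, against 278 to 479 CPM. Cd200, whose receptor restrains myeloid cells, ranged from 544 to 1182 CPM against 13.5 to 38.7 CPM, and Il4i1 from 489 to 897 CPM against 3.37 to 157 CPM. PD-L2 (Pdcd1lg2) ranged from 227 to 466 CPM against 113 to 230 CPM, which overlapped at the edge. UMIs of Cd274 were found in 231, of Cd200 in 201 and of Il4i1 in 191 of the 240 members. Of 14 genes of this kind, 9 were at least 2 times higher, while 3 were at 0.5 times or less, among them Havcr2 (TIM-3), a cDC1 inhibitory receptor, at 21.7 against 241 CPM. Ido1, an enzyme of tryptophan breakdown, was near 0 in both populations at 2.32 and 2.88 CPM.

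Among cytokine genes, Il12b, the shared p40 subunit of IL-12 and IL-23, ranged from 223 to 704 CPM with a median of 460 CPM at day 10, against 0 to 124 CPM. Il12a, the other subunit of IL-12, had 0 UMIs in the members and Il23a stood at 9.30 CPM. Il15ra, which presents IL-15 to NK cells and T cells, ranged from 168 to 272 CPM against 2.95 to 21.4 CPM, and Il15 itself from 34.0 to 155 CPM against 11.3 to 20.2 CPM. Tgfb1, an anti-inflammatory cytokine, ranged from 12.5 to 68.0 CPM and was lower than in the other DC, at 109 to 200 CPM, in 8 of 8 grafts. Il10 was near 0 in both, at 0.775 and 0.576 CPM. Summed over the cytokine list, the level was 2193 CPM in members, 2309 CPM in cluster 17, 878 CPM in cluster 19 and 409 CPM in cluster 25.

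Antigen presentation genes differed among themselves. H2-Aa ranged from 5538 to 9502 CPM with a median of 7821 CPM at day 10, within reach of the 5576 to 8050 CPM of the other DC. H2-Ab1, its beta chain, ranged from 1804 to 4796 CPM against 5209 to 7718 CPM and was lower in 8 of 8 grafts. The peptide editors H2-DMa and H2-DMb1 ranged from 183 to 402 CPM and 14.4 to 107 CPM, against 529 to 929 CPM and 405 to 551 CPM. B2m, the light chain of MHC class I, ranged from 3603 to 4982 CPM against 1807 to 2433 CPM. For class II, 1 of 15 genes was at least 2 times higher and 6 were at 0.5 times or less, and for class I, 4 and 2 of 17.

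Genes of uptake and microbial sensing were low. Of 16 measured, 14 were at 0.5 times or less, with a median log2 ratio of -3.09. Cd14, a lipopolysaccharide co-receptor, ranged from 0 to 115 CPM against 179 to 453 CPM, and the scavenger receptor Cd36 stood at 1.55 against 105 CPM. The exception was Ly75 (DEC-205), an endocytic receptor, at 374 to 578 CPM against 19.4 to 82.6 CPM.

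Many lineage markers of DC were low. In all, 11 of 14 cDC1, 7 of 14 cDC2 and 9 of 10 plasmacytoid markers were at 0.5 times or less, while the summed level was 2831 against 4720 CPM for the cDC1 and 1976 against 2362 CPM for the cDC2 list. The cDC2 lectins Cd209a and Clec10a stood at 0 and 1.55 CPM against 156 and 127 CPM, and the cDC1 markers Xcr1, Naaa and Rab7b at 3.1, 8.52 and 0 CPM against 136, 643 and 206 CPM. Transcription factors of cDC1 were higher, with Irf8 at 1358 to 2214 CPM over the grafts of day 10 against 812 to 1215 CPM, and Batf3 at 125 to 359 CPM against 33.4 to 97.3 CPM. The cDC2 genes Sirpa and Irf4 stood at 83.7 and 49.6 CPM against 37.2 and 31.7 CPM. Siglech, a marker of plasmacytoid DC, had 0 UMIs. Which lineage each member came from was not tested.

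Many NF-kB genes were higher. Of 23 genes, 14 were at least 2 times higher and 0 were at 0.5 times or less. Summed over the list, the level was 10760 CPM in members, 6948 CPM in cluster 17, 2751 CPM in cluster 19 and 2920 CPM in cluster 25. Birc2 and Traf3, which control the noncanonical branch, ranged from 263 to 454 CPM and 363 to 513 CPM at day 10 against 16.9 to 42.9 CPM and 38.8 to 91.4 CPM, and Nfkbia, the inhibitor that NF-kB itself induces, from 1243 to 2075 CPM against 324 to 725 CPM. Of 15 survival and cell death genes, 4 were at least 2 times higher and 1 was at 0.5 times or less, with a median log2 ratio of 0.34. Bcl2l1 and Bcl2a1b, both against cell death, stood at 69.0 and 1710 CPM against 25.5 and 675 CPM, and Bcl2, which also counters it, at 2.32 against 10.7 CPM. Of 18 cell cycle genes, 15 were at 0.5 times or less. Among 21 glycolysis genes 10 were at 0.5 times or less, with lactate dehydrogenase Ldha at 45.4 to 144 CPM against 392 to 780 CPM. Pfkfb3, which activates the committed step of glycolysis, ran against its list at 261 to 691 CPM where the other DC held 4.77 to 52.0 CPM.

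Within the cluster the chemokines were not held by every cell. Ccl22 UMIs were found in 202 members, Ccl17 in 130, Ccl5 in 212 and Il12b in 88 (36.7%). Without thinning, Ccl17 was found in 62.4% of the 202 cells with Ccl22 and in 10.5% of the 38 without it, whose median depths were 5160.5 and 3956 UMIs. Il12b was found in 37.7% of cells with Ccl17 and in 35.5% of those without. At 1000 UMIs per cell, Ccl22 was found in 57.1%, Ccl17 in 27.9% and Il12b in 21.7% of members, against 5.44%, 6.37% and 1.04% of the other DC.

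The first comparison asked whether the cluster took a different share of DC in Rnls mutant grafts. At day 10 it held 39 of 75, 18 of 64, 13 of 77 and 39 of 107 DC in the 4 mutant grafts, or 52.0%, 28.1%, 16.9% and 36.4%. In the 4 WT grafts it held 36.2%, 19.05%, 21.1% and 11.6%. The mean was 33.4% ± 14.8 (SD, n = 4) in mutant and 22.0% ± 10.4 in WT grafts, and the groups overlapped. The difference of 11.4 points gave p = 0.286 in a two-sided exact permutation test, whose smallest possible p is 0.0286. At day 17 the shares were 14.8%, 7.69%, 9.43% and 13.3% in mutant grafts and 9.52%, 17.9%, 0% and 33.3% in WT grafts, with means of 11.3% ± 3.29 and 15.2% ± 14.1. These rest on 12 to 61 DC per graft, and a count of 0 of 50 DC allows a share of up to 6%. The difference of -3.88 points (exact permutation p = 0.657) rested on WT replicate 4, without which it was 2.18 points (p = 0.743). Over both days the difference was 3.75 points (exact permutation p = 0.536, adjusted over the 4 DC clusters 0.798), and the genotype difference at day 17 minus that at day 10 was -15.3 points (exact permutation p = 0.2). As a share of all CD45+ cells the cluster took 1.61% ± 0.739 in mutant and 1.32% ± 0.282 in WT grafts at day 10, and 0.345% ± 0.117 and 0.698% ± 0.691 at day 17. Shares of the 2 days are given as values only, because 3 of the 14 tested genes that lead the cluster differed between days (below).

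**Figure D2:**
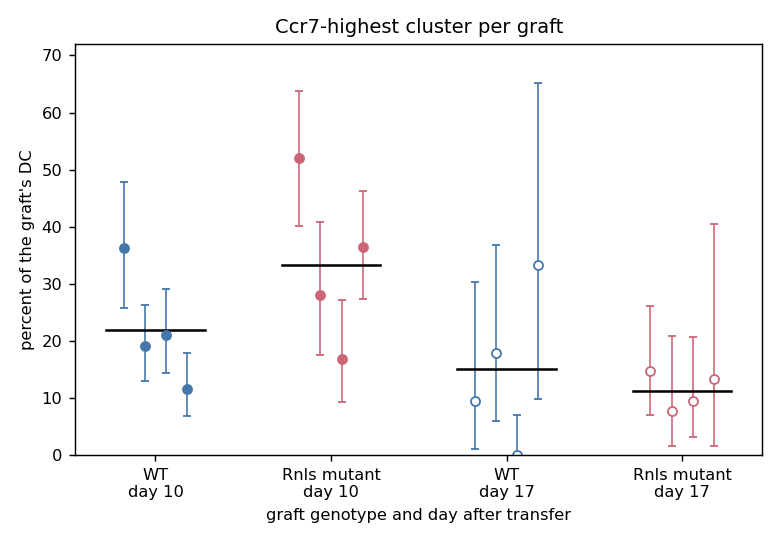
Ccr7-high DC as percent of the DC of each graft, by genotype and day, with 95% exact (Clopper-Pearson) intervals and lines at the mean of 4 grafts. Mutant and WT grafts overlap at both days, and the day 10 mutant grafts span 16.9% to 52.0%.

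Within the cluster, gene levels did not pass the test between Rnls mutant and WT grafts. UMIs were summed per graft and fitted with edgeR's quasi-likelihood test. At day 10, 0 of 2319 genes (0%) passed an adjusted p of 0.05, with 179 at an unadjusted p under 0.05, and DESeq2 called 0. At day 17, 0 of 1425 genes (0%) passed, with 143 unadjusted, while DESeq2 called 8. Over both days it was 0 of 1425 (0%), with 115 unadjusted and 3 by DESeq2, and for the genotype effect at day 17 minus that at day 10 also 0 of 1425 (0%), with 120 unadjusted and 0 by DESeq2. The day 17 count moved from 0 to 12 without mutant replicate 2, 5 without WT replicate 4, 4 without mutant replicate 4 and 1 without WT replicate 2. Over both days, leaving out the same 4 day 17 grafts gave 5, 5, 1 and 3 calls, and at day 10 leaving out mutant replicate 4 gave 5. Mice carried a graft of each genotype, but the sources used here do not say whether a hashtag number marks a mouse. With that number as a block, 0 genes passed at day 10, 2 at day 17, 2 over both days and 1 for the difference between days.

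The genes nearest to the threshold differed by day. At day 17, Synj1, a phosphoinositide phosphatase, stood at 523, 499, 402 and 452 CPM in mutant grafts and at 106, 152 and 78.4 CPM in WT grafts. Ccl8, a monocyte-drawing chemokine, stood at 314, 499, 302 and 181 CPM in mutant and 0, 16.9 and 52.2 CPM in WT grafts. The groups did not overlap for either gene, on sums of 2 to 9 cells per graft, and the log2 differences of 1.94 (SE 0.39) and 3.54 (SE 0.72) each had an adjusted p of 0.0528. At day 10 the 3 smallest p-values belonged to Gm10076, Tm4sf5 and Tnfrsf9 (4-1BB, a costimulatory receptor, at a log2 difference of 1.30), each with an adjusted p of 0.252. Over both days Cd52 was at -0.85, Ndrg1, a hypoxia-responsive gene, at 1.25 and Nfat5 at 1.13, all with an adjusted p of 0.12. PD-L1 (Cd274) at day 10 stood at 1180, 1277, 877 and 1339 CPM in mutant grafts and at 1085, 1283, 1258 and 1077 CPM in WT grafts, and the groups overlapped.

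**Figure D3:**
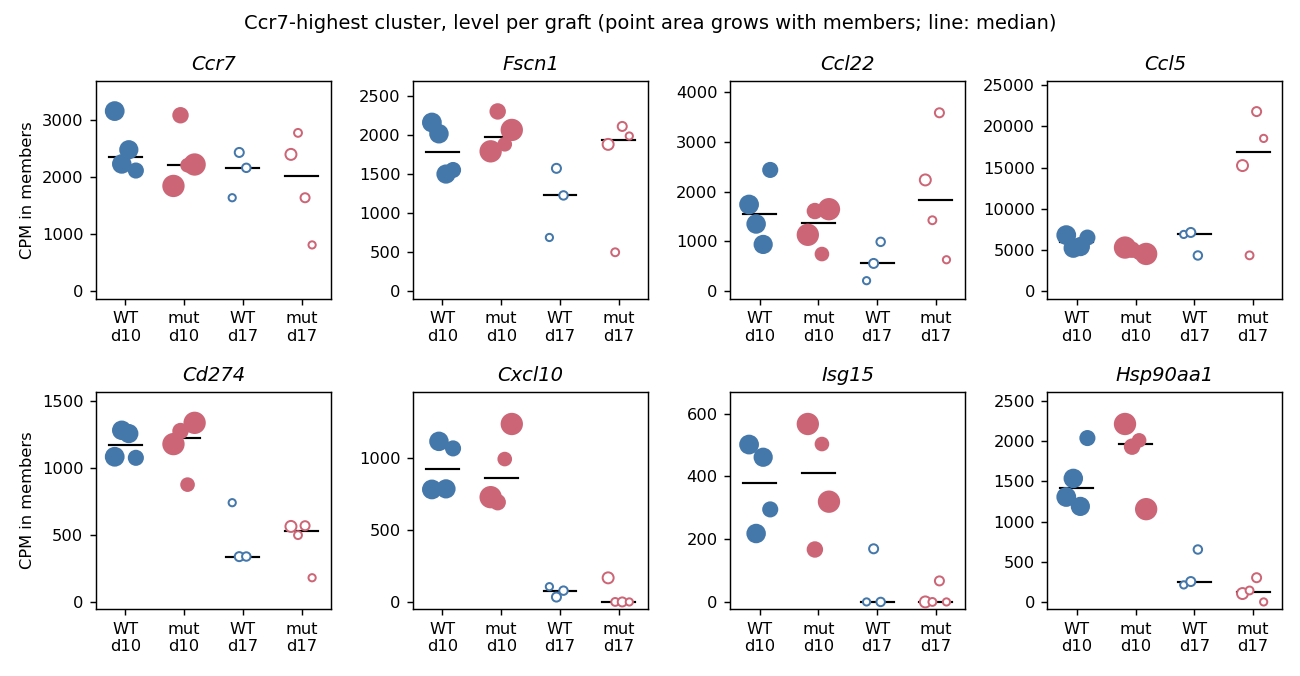
Levels per graft in Ccr7-high DC of Ccr7, Fscn1, Ccl22, Ccl5, Cd274, Cxcl10, Isg15 and Hsp90aa1, in CPM, for WT and Rnls mutant grafts at days 10 and 17, with point area growing with the number of cells and lines at the median. Genotypes overlap at day 10 for all 8 genes, and Cd274, Cxcl10 and Hsp90aa1 lie lower at day 17 than at day 10 in every graft.

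The second comparison set day 17 against day 10, over 15 grafts and both genotypes. Of 1425 genes, 47 (3.3%) rose and 87 (6.11%) fell at an adjusted p of 0.05, with a median log2 change of -0.04 over all genes. In the other DC of the grafts, fitted on their own, 817 of 5143 genes (15.9%) rose and 744 (14.5%) fell, from more cells. In bulk sums such as these, fewer cells of a kind within the cluster and less RNA per cell cannot be told apart.

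The marker genes did not pass. Ccr7 stood at 1850, 3091, 2214 and 2226 CPM in mutant and 3165, 2236, 2486 and 2120 CPM in WT grafts at day 10. At day 17 it stood at 2404, 2782, 1642 and 814 CPM and at 1643, 2438 and 2168 CPM. The days overlapped, and the log2 change was -0.24 (SE 0.19, adjusted p = 0.462), while in the other DC, where Ccr7 is low, it fell by 1.12 (adjusted p = 0.00854). Ccr7 stood at 270 CPM in cluster 17, whose share fell, and at 37.2 CPM in cluster 19, whose share rose. Fscn1 changed by -0.40 (adjusted p = 0.263) and Ccl22 by -0.31 (adjusted p = 0.566), neither past the threshold, and Ccl22 was at 0.73 in mutant grafts alone (adjusted p = 0.241).

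Interferon genes fell together. Of 10 tested targets of interferon gamma, 8 fell and 0 rose, with a median log2 change of -1.30. Of 6 tested type I interferon-stimulated genes 4 fell and 0 rose, with a median of -2.90. In the other DC 17 of 21 and 13 of 16 fell. Over all tested genes 6.11% fell in Ccr7-high DC and 14.5% in the other DC. Pooled over days, the interferon gamma list summed to 10949, 5831 and 4665 CPM in clusters 17, 19 and 25. The type I list summed to 3290, 1057 and 5484 CPM. The part of the changed mix of clusters in the fall in the other DC was not tested. Cxcl10 stood at 727, 692, 992 and 1235 CPM in mutant and 781, 1115, 785 and 1066 CPM in WT grafts at day 10. At day 17 it stood at 167, 0, 0 and 0 CPM in mutant and at 106, 33.9 and 78.4 CPM in WT grafts. The days did not overlap, and the log2 change was -3.74 (SE 0.39, adjusted p = 3e-06), against -2.98 in the other DC.

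The transcription factors of this response were lower as well. Irf1, a driver of interferon gamma responses, ranged from 737 to 1528 CPM over the 8 grafts of day 10 and from 214 to 689 CPM over the 7 of day 17, with no overlap, and fell by 1.27 (SE 0.24, adjusted p = 0.002). Irf8 fell by 0.81 (adjusted p = 0.0324), which 10 of 20 alternatives lost, with adjusted p of up to 0.0659 when a graft was left out and of 0.205 in mutant grafts alone. Gbp5, a guanylate-binding protein, ranged from 317 to 585 CPM and from 0 to 271 CPM, with no overlap, and fell by 2.05 (adjusted p = 0.00108). Isg15, a ubiquitin-like protein, ranged from 167 to 567 CPM at day 10 and was at 0 in 5 of 7 grafts at day 17, with 169 CPM in WT replicate 2. It fell by 3.18 (SE 0.59, adjusted p = 0.00196), against -3.53 in the other DC. Cxcl9, at 298 to 3061 CPM at day 10, stood at 0 to 78.4 CPM in 6 of the 7 grafts of day 17 and at 2649 CPM in WT replicate 1, and fell by 2.89 (SE 0.73, adjusted p = 0.0176).

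Promoters of 2 of these genes are printed since both fell and hold GAAA repeated after any 2 bases, the core of the element bound by interferon-induced factors (ISRE), which is marked in capitals and was searched on both strands. They are the 250 bases before the start on the minus strand from RefSeq GRCm38.p6, Cxcl10 at chr5:92348890-92349139 and Isg15 at chr4:156200819-156201068.
Cxcl10: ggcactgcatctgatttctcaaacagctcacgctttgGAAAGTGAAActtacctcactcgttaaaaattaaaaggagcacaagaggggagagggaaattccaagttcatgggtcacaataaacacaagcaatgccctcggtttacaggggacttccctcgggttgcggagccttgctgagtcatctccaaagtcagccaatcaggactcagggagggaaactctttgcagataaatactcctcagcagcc
Isg15: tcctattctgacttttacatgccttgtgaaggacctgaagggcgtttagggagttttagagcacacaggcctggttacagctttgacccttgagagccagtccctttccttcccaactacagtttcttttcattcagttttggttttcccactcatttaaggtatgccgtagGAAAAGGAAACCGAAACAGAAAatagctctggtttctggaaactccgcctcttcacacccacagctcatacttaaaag
Cxcl10 holds 1 match and Isg15 holds 3 that overlap each other. The letters occur in the windows of 3.46% of 27025 genes and in 46 of 1117 tested genes with a window (4.12%). They occur in 7 of 62 genes that fell (11.3%), which were Aif1, Cxcl10, Gbp5, Isg15, Jaml, Lactb and Phf11b, and in 3 of 39 that rose (7.69%). Aif1, Jaml, Lactb and Phf11b were named after their values were seen.

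PD-L1 was among the genes that fell. Cd274 ranged from 877 to 1339 CPM at day 10 and stood at 564, 499, 570 and 181 CPM in mutant and 742, 339 and 340 CPM in WT grafts at day 17. The days did not overlap, and it fell by 1.33 (SE 0.21, adjusted p = 0.000675), where the value in the other DC was -0.70 (adjusted p = 0.0838). The difference between these 2 changes did not pass (adjusted p = 0.693). PD-L2 (Pdcd1lg2) fell by 1.45 (adjusted p = 0.00909), though not past the threshold in mutant grafts alone (adjusted p = 0.139), and Cd200 by 1.04 (adjusted p = 0.0409), which 14 of the 20 alternatives lost. Of 9 tested inhibitory genes 4 fell and 1 rose, the retinoic acid enzyme Aldh1a2, which rose by 2.49 (adjusted p = 0.0458) and was lost in 11 of 17 alternatives. Over all 1425 genes 6.11% fell and 3.3% rose, and whether this list differs from that was not tested.

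Several heat shock genes fell and 3 early response genes rose. The chaperone Hsp90aa1 ranged from 1155 to 2216 CPM at day 10 and from 0 to 653 CPM at day 17, without overlap, and fell by 2.74 (SE 0.31, adjusted p = 1.12e-05), against -2.55 in the other DC. Hspa1a, Hspa1b, Dnajb1 and Hsph1 fell by 3.90, 3.87, 3.73 and 3.74, also without overlap. Dnaja1, at 963 to 2041 CPM and then 90.4 to 261 CPM, fell by 2.74 with the smallest adjusted p of all (1.03e-06). Fosb, an early response factor, rose by 2.14 (SE 0.36, adjusted p = 0.00106), Nr4a1 by 2.13 (adjusted p = 0.0137) and Zfp36 by 1.17 (adjusted p = 0.0032), against 1.71, 1.83 and 1.18 in the other DC. Nr4a1 did not pass without mutant day 17 replicate 1 (1.35, adjusted p = 0.312), nor did Zfp36 in mutant grafts alone (adjusted p = 0.213) or without the filter on low counts (0.70, adjusted p = 0.256). Of 14 such genes tested 3 rose and 5 fell, and of 18 in the other DC 9 rose and 5 fell. Over all tested genes 3.3% rose and 6.11% fell in Ccr7-high DC, and 15.9% and 14.5% in the other DC. Whether the list differs from these shares was not tested. Many of these genes respond to handling of tissue, and the part of library preparation in the changes was not tested.

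Of 33 mature DC genes tested, 3 rose and 4 fell, where 3.3% rose and 6.11% fell over all 1425 genes. Whether the list differs from these shares was not tested. Ccl5 ranged from 4523 to 6806 CPM at day 10 and stood at 15239, 4351, 21785 and 18532 CPM in mutant and 6888, 7128 and 4336 CPM in WT grafts at day 17. It was highest in 3 mutant grafts, while the others lay just under or just over the day 10 range. Ccl5 rose by 0.84 (SE 0.23, adjusted p = 0.0251), against -0.68 (adjusted p = 0.3) in the other DC. It was lost in 7 of 20 alternatives, among them the one without WT day 17 replicate 2 (0.63, adjusted p = 0.104), the one without the 2 members that held T cell UMIs (0.75, adjusted p = 0.0946) and the one without the filter on low counts (0.35, adjusted p = 0.619). Cd83, a maturation marker, rose by 0.63 (adjusted p = 0.0454), which 15 of 20 alternatives lost, and H2-M2 by 1.22 (adjusted p = 0.0331), lost in 9. Serpinb6b and Socs2 fell by 0.80 (adjusted p = 0.0315) and 0.88 (adjusted p = 0.0499), lost in 11 and 13 alternatives.

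Ccl17 and Il12b rested on single grafts or on 1 genotype. Ccl17 stood at 521 to 1389 CPM at day 10, at 627, 214, 1843 and 181 CPM in mutant grafts and at 0, 33.9 and 261 CPM in WT grafts at day 17. It fell by 1.74 (SE 0.44, adjusted p = 0.0176) over all grafts, but in mutant grafts alone the value was -0.02 (adjusted p = 0.993), and the genotype difference between days did not pass (adjusted p = 0.32). Il12b stood at 1777, 4208, 771 and 814 CPM in mutant and 0, 3217 and 235 CPM in WT grafts at day 17, against 223 to 704 CPM at day 10. It rose by 1.72 (SE 0.49, adjusted p = 0.0331), which 12 of 20 alternatives lost, and without WT day 17 replicate 2 the value was 0.05 (adjusted p = 0.97).

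The remaining lists were short and gave small counts. Over all 1425 genes 3.3% rose and 6.11% fell, and whether the shares of these lists differ from that was not tested. Gpr183 fell by 1.81 (adjusted p = 0.0124) and was the 1 of 10 receptors and migration genes that did. Mcl1, a short-lived survival factor, fell by 1.05 (adjusted p = 0.00403) as 1 of 9 survival genes. Of 19 NF-kB genes 1 rose, the inhibitor Tnfaip3 by 0.79 (adjusted p = 0.0494, lost in 15 of 20 alternatives), and of 16 MHC class I genes 2 fell, the immunoproteasome parts Psme2 and Psmb8 by 0.65 and 0.63, each lost in 3 of 20 alternatives. Of 9 genes on the class II presentation list 1 rose, the tetraspanin Cd9, by 1.29 (adjusted p = 0.00293). Cd9 is not itself a class II chain, and it was the only 1 of the 9 with a value over 0 (median of the list -0.30). Of 8 glycolysis genes 0 passed. Outside the lists, the genes with the smallest p that rose were Rbpj (1.77), a Notch pathway factor, Adam22 (4.49), Adam8 (2.08), Gm2a (2.42), Zc3h12c (2.36), Btg2 (1.08) and Asap1 (1.50), and those that fell were the IL-1 receptor antagonist Il1rn (-2.98), the cyclin Ccnd2 (-1.95) and the chaperone Hsp90ab1 (-0.98). Without WT day 17 replicate 2, Rbpj, Gm2a and Zc3h12c did not pass (adjusted p = 0.0968, 0.0906 and 0.66), and Btg2 was lost in 3 of 20 alternatives, with an adjusted p of 0.375 in mutant grafts alone.

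**Figure D4:**
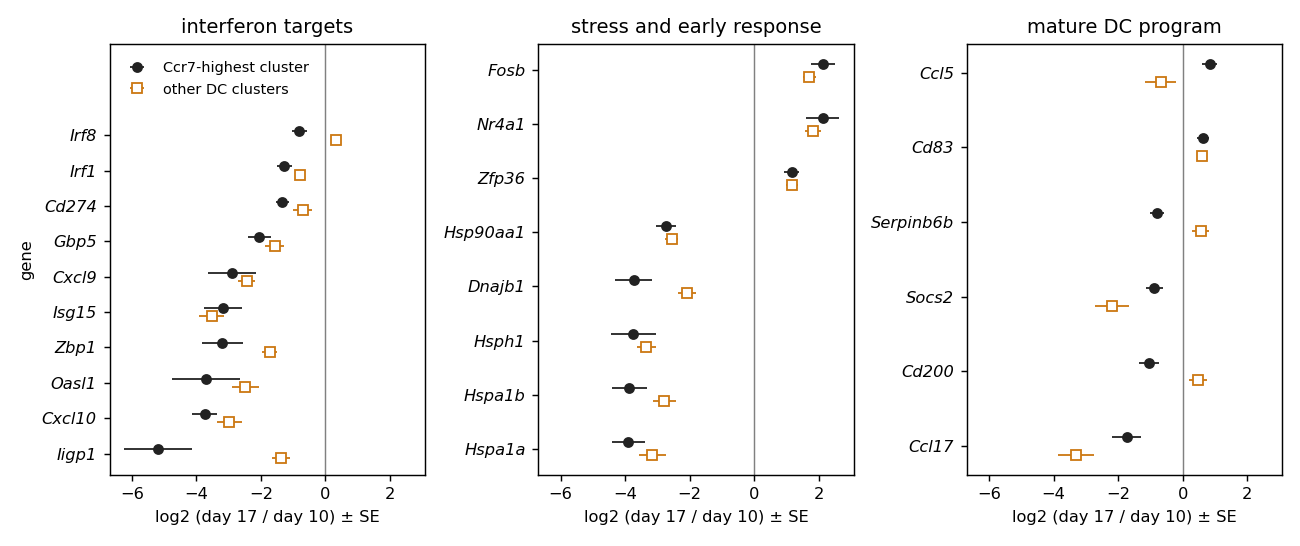
Log2 change from day 10 to day 17 with its SE in Ccr7-high DC (filled circles) and in the other DC clusters (open squares), for the genes shown of 3 groups, which passed the test in Ccr7-high DC and were also tested in the other DC. The interferon targets and heat shock genes shown lie left of 0 in both except Irf8, at 0.32 in the other DC, and Cd200, Serpinb6b and Ccl5 lie on opposite sides of 0.

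The day count of 134 genes moved when single grafts were left out, both grafts with few members and grafts with many. It was 146 without WT day 17 replicate 4, the graft with NK transcripts and 4 members. It was 79 without mutant day 17 replicate 2, which held 3 members, and 80 without WT day 10 replicate 3, which held 27. In mutant grafts alone, chosen after the WT cells of day 17 were seen to be few and deep, 47 of 877 genes passed. Of the 134 genes 97 were tested there, of which 96 had the same sign and 37 passed.

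The last comparison asked which genes changed between days by a different amount in Ccr7-high DC than in the other DC of the same grafts, over the 11 grafts with at least 5 members, 3 of them of day 17. Of 4346 genes, 4 (0.092%) had a higher and 17 (0.391%) a lower change in Ccr7-high DC, with a median difference of -0.18. Cd86 stood at 501 to 808 CPM at day 10 and at 272, 143, 302 and 633 CPM in mutant and 1007, 254 and 157 CPM in WT grafts at day 17, which overlapped. In the other DC it went from 249 to 384 CPM to 351 to 509 CPM. Its change was lower in Ccr7-high DC by a log2 difference of -1.98 (SE 0.31, adjusted p = 0.000383), and by -1.71 (adjusted p = 0.00149) when grafts with at least 1 member entered. The values of each population on its own come from separate fits over more grafts, so that they do not add up to this difference. In those fits Cd86 was at -0.89 in Ccr7-high DC over 15 grafts, which did not pass (adjusted p = 0.0676), and rose by 0.54 in the other DC over 16 grafts (adjusted p = 0.00225).

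The class II chains H2-Aa and H2-Eb1 differed by -1.11 (SE 0.20, adjusted p = 0.00223) and -1.29 (adjusted p = 0.00284), where in the separate fits both rose in the other DC by 0.58 and 0.67 and had values of -0.39 and -0.31 that did not pass in Ccr7-high DC. Neither difference passed without mutant day 17 replicate 3 (adjusted p = 0.0671 and 0.079). Flt3 differed by -2.21 (adjusted p = 0.00297), with a rise of 1.26 in the other DC. The other genes lower in this comparison with the smallest p were Tbc1d4 (-1.62), Tbc1d8 (-1.79), Gm34084 (-4.96), Tmsb4x (-0.68), Ly6a (-2.71) and Klf6 (-1.26), and those higher were the growth factor Nrg1 (2.85), Mast4 (4.06), the protease inhibitor Cstb (1.60) and Pdia6 (2.78). A higher value here need not be a rise in Ccr7-high DC. In the separate fits Nrg1 fell by 1.45 in Ccr7-high DC (adjusted p = 0.0324) and by 2.86 in the other DC. Cstb was at 0.31 in Ccr7-high DC (adjusted p = 0.444) and fell by 1.31 in the other DC. Mast4 and Pdia6 were not tested in Ccr7-high DC alone and fell by 1.13 and 0.86 in the other DC. The mix of the other DC was not constant: cluster 19 made up 19.1% ± 12.8 of DC in mutant and 20.6% ± 9.24 in WT grafts at day 10, and 59.8% ± 6.49 and 52.0% ± 25.9 at day 17. Against cluster 19 alone, Cd86 (-2.22), H2-Aa (-1.17), H2-Eb1 (-1.39), Flt3 (-2.0) and the other lower genes named passed, as did Pdia6, whereas Nrg1 (1.92, adjusted p = 0.345) and Cstb (1.04, adjusted p = 0.102) did not and Mast4 was not tested. With at least 1 member per graft, Ly6a was at -0.94 (adjusted p = 0.469) and Pdia6 at 1.89 (adjusted p = 0.111), and without WT day 17 replicate 2 Gm34084 was at -1.83 (adjusted p = 0.622).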

How the data were processed

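The deposited table held raw UMI counts of 32285 genes per cell, made by the authors from 10x Genomics 3' v3.1 libraries with hashtags, with Cell Ranger and mm10 per the labels (version not given in the sources used here). Graft, cluster and cell type of each cell were taken as deposited, and how the authors filtered and clustered cells is not given in the sources used here. All grafts held 1742750 to 9729230 UMIs over all cells, and the members of a graft 11062 to 212900.

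UMIs of members were summed per graft and tested with edgeR 4.0.16 (TMM, filterByExpr, glmQLFit, glmQLFTest) in R 4.3.3 with limma 3.58.1, with genotype at each day as groups and Benjamini-Hochberg adjusted p under 0.05 as threshold. A minimum of 5 members per graft was planned. It leaves 1 WT graft at day 17, so comparisons within the cluster that involve day 17 used the 15 grafts with at least 1 member, and the minimum was kept at day 10, where 11 grafts entered the fit, and for the comparison with other DC. The latter fitted members and other DC of the same grafts in 1 model. Shares were compared with two-sided exact permutation tests (70 assignments per day, 4900 over both) in SciPy 1.17.1, pandas 2.3.3 and NumPy 2.4.6 under Python 3.11.15. Cells were thinned to 1000 UMIs where stated, and shares of cells are otherwise unthinned, and intervals are exact binomial (95%). The planned test of shares between days is not given. DESeq2 1.42.0, no filter on low counts, other minimums, removal of possible doublets (2 or more T cell UMIs, or the 5% of cells with most UMIs per library), the hashtag number as a block and each graft left out were the alternatives. No doublet caller was run. Only the genotype fit at day 10 was tried on simulated data, and the fits that involve day 17 or the other DC were not.

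Named genes were the markers, members of gene lists, the 15 highest and 10 lowest ratios, and at most 10 genes per direction and contrast with the smallest p, or 3 where none passed. Members and lists were chosen with earlier results of these data known. Positions are GRCm38 (GENCODE), and promoters RefSeq. Some genes of the lists are counted but not reported here by name.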

Additional observations from a re-analysis of the deposited data

Results flagged for a closer look

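Of 40 groups of 4 grafts examined for a value far from the others, 3 were picked out. The limit used gives about 1 in 20 by chance for normally spread values. Where 3 grafts are at 0, any other value is picked, so that rate does not hold there. All 3 values picked out were of mutant grafts of day 17. Fscn1 stood at 499 CPM in replicate 2, on 3 members, against 1881 to 2111 CPM in the other 3 grafts. Cxcl10 stood at 167 CPM in replicate 1 where the other 3 were at 0, and Isg15 at 67.0 CPM in replicate 3 where the other 3 were at 0. The part of the small number of members in these values was not tested.

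For 14 named genes the change between days differed between Ccr7-high DC and the other DC. The log2 difference was positive for Nrg1 (2.85), Mast4 (4.06), Cstb (1.60) and Pdia6 (2.78). It was negative for Cd86 (-1.98), Tbc1d4 (-1.62), H2-Aa (-1.11), Gm34084 (-4.96), H2-Eb1 (-1.29), Flt3 (-2.21), Tbc1d8 (-1.79), Tmsb4x (-0.68), Ly6a (-2.71) and Klf6 (-1.26). Nrg1 in Ccr7-high DC stood at 690 and 637 CPM in the mutant grafts and at 16.9 CPM in the WT graft of day 17 that entered this fit. Over 15 grafts, in the separate fit, Nrg1 fell by 1.45 between days in Ccr7-high DC. Mast4, Pdia6, Gm34084 and Klf6 did not pass without WT day 17 replicate 2 (adjusted p = 0.219, 0.193, 0.622 and 0.0996), nor did Cstb, Pdia6, Tbc1d8, Tmsb4x and Ly6a without mutant day 17 replicate 1 (adjusted p = 0.17, 0.122, 0.0585, 0.0519 and 0.17). Tbc1d8, Tmsb4x and Ly6a also did not pass without mutant day 17 replicate 3 (adjusted p = 0.079, 0.0519 and 0.0797). Without WT day 17 replicate 2 the value of Gm34084 was -1.83 and that of Ly6a -4.91, and without the cells with most UMIs Gm34084 was at -2.21 (adjusted p = 0.492), Ly6a at -2.28 (adjusted p = 0.106) and Klf6 at -1.02 (adjusted p = 0.125). With at least 1 member per graft, Ly6a was at -0.94 (adjusted p = 0.469) and Pdia6 at 1.89 (adjusted p = 0.111). Gene names are those of the deposited table, and Gm34084 is a predicted gene.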

How the results depend on the processing

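No share difference between genotypes passed under any alternative. Over both days it was -0.0324 points with all CD45+ cells as denominator, in place of 3.75 points of DC. At day 17 it ranged from -8.93 to 2.18 points with 1 graft left out.

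Between days, 357 genes passed without the filter on low counts and 47 in mutant grafts alone (chosen after seeing the data), with 79 to 146 when a graft was left out. Of the grafts, mutant day 10 replicate 1 (84), WT day 10 replicates 1, 2 and 3 (81, 87 and 80) and mutant day 17 replicate 2 (79) lowered the count by over 1.5 times. Ccl22, which did not pass, was at 0.73 in mutant grafts alone. For genotype over both days, DESeq2 gave 3, no filter 7, and leaving out the cells with most UMIs 4, with 0 to 5 when a graft was left out. At day 10 no filter gave 8, and leaving out a graft 0 to 5. At day 17 DESeq2 gave 8, no filter 12 and leaving out the cells with most UMIs 7, with 0 to 12 when a graft was left out. The genotype effect between days gave 3 without the filter, 1 without the cells with most UMIs and 0 to 4 when a graft was left out, 4 of them without WT day 17 replicate 4. Of the difference in day effect between Ccr7-high and other DC, 44 genes passed without the filter, 67 with at least 1 member per graft and 42 against cluster 19 alone (chosen after seeing the data), and 14 to 31 when a graft was left out. The cause of these shifts was not tested.

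Mice carried grafts of both genotypes, but whether same-numbered grafts shared a mouse is not given in the sources used here. At day 10 the deviations of same-numbered grafts correlated at 0.141, -0.0234, 0.0388 and 0.0209 over 1937 genes. With the hashtag number as a replicate block, 2 genes passed over both days, 2 at day 17, 1 for the genotype effect between days and 0 at day 10, and the p of the share differences was 0.25, 0.625 and 0.492 at day 10, day 17 and over both.

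Of the values of single named genes, 1 changed direction, 168 lost and 30 gained the threshold, and 1246 kept direction and side. A minimum of 5 or 10 members could not be run for comparisons within the cluster at day 17, nor 10 for the comparison with other DC. The 30 members of day 17, with 2 to 9 per graft, limit what can be seen there.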
